A study of Homo sapiens with 6 samples.

Results

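The genes described here are BRCA1 and the 8 proteins that bind it directly or form a complex with it, namely BARD1, PALB2, BRCA2, BRIP1, RBBP8, UIMC1, BABAM1 and BRCC3. They were chosen by name, and all 9 were found among the 58174 genes of the deposited expression table. BRCA1 is a tumour suppressor that forms a ubiquitin ligase with BARD1 and directs double-strand breaks to repair by homologous recombination. It joins different partners for different tasks. PALB2 links it to BRCA2, a mediator of recombination. BRIP1 is a helicase, and RBBP8, also called CtIP, starts the resection of broken ends. UIMC1 (RAP80), BABAM1 (MERIT40) and BRCC3 (BRCC36) belong to the BRCA1-A complex, which binds ubiquitin chains at breaks and restrains resection.

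All samples were SiHa cells, an established human line of cervical squamous cell carcinoma. The OV-BRCA1 group (3 samples) received the plasmid GV230-BRCA1 and the NC group (3 samples) the empty GV230 plasmid, each with a lipid transfection reagent, and mRNA was sequenced 48 h later. The comparison asks what the added BRCA1 changes in the mRNA of these cells. The BRCA1 sequence in the plasmid, its promoter and the share of cells that took it up are not given in the sources used here, and reads from the plasmid and from the cells' own gene cannot be told apart. Values are FPKM, which scale the fragments of a transcript to its length and to the depth of the sample, summed here over the transcripts of a gene. The depth of a sample, estimated from the files, was 13.75 to 16.19 M fragments with GV230-BRCA1 and 15.69 to 19.32 M with the empty plasmid. Epithelial genes summed to 1728 to 1875 FPKM in the OV-BRCA1 group against 2078 to 2123 in the NC group, and KRT17, KRT8, KRT18 and SFN made up most of it, while KRT5, KRT14, KRT19 and TP63 were below the filter on low values. KRT17 was lower in the OV-BRCA1 group (1033 against 1434 FPKM, log2 fold change -0.48, adjusted p = 0.00263), and KRT6A, DSP, KRT18 and KRT8 were higher, by 0.20 to 0.84 on the log2 scale, so the median of the 6 tested was 0.29. KRT6A, at 0.979 to 1.19 FPKM against 0.0278 to 0.250, passed the filter only through the OV-BRCA1 samples. The study listed both KRT17 and KRT8 among its downregulated DEGs, so KRT8 had the opposite direction here. The immune genes summed to 31.4 to 37.2 FPKM with GV230-BRCA1 and 22.2 to 23.9 with the empty plasmid. Of these, PTPRC, which marks leukocytes, was at 0 in every sample, CD68 was higher (26.3 against 3.43 FPKM, 2.63, adjusted p = 9.75e-05) and CD14 lower (7.79 against 19.4 FPKM, -1.22, adjusted p = 5.94e-04). The fibroblast genes summed to 3.18 to 3.71 FPKM against 6.06 to 6.74, nearly all of it COL1A1, which was lower (-0.79, adjusted p = 0.00106), and the endothelial genes to 0.761 to 1.45 against 0.629 to 0.788. The libraries also differed in 5 RNAs without a poly(A) tail, whose sum was 380 to 487 FPKM in the OV-BRCA1 group against 22.6 to 39.9 in the NC group, and in the mitochondrial share of FPKM, at 14.8% to 17.3% and 21.0% to 23.2%. The part of these differences in the results below was not tested.

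BRCA1 (ENSG00000012048, GRCh38 chromosome 17, 43044295 to 43170245, minus strand) had 35.7, 40.8 and 34.9 FPKM in the OV-BRCA1 samples, given here and below in the order of their replicate numbers, against 20.1, 14.9 and 21.7 FPKM in the NC samples. The groups did not overlap, and every sample that received GV230-BRCA1 was above every sample with the empty plasmid. The mean level was 1.97 times that of the NC group. On the log2(FPKM + 1) scale the difference was 0.95 (SE 0.14, 95% interval 0.61 to 1.30, adjusted p = 0.00373, limma with Benjamini-Hochberg adjustment). On this scale BRCA1 passed the adjusted p of 0.05 but not the absolute log2 fold change of 1 that the study required of DEGs. The study applied that criterion to DESeq, a test of counts, so the value here does not show how BRCA1 stood there. By qPCR the study reported BRCA1 as significantly increased in the OV-BRCA1 group. The coefficient of variation was 18.8% in the NC group and 8.6% in the OV-BRCA1 group. Without NC replicate 1 or NC replicate 3, BRCA1 passed both criteria, with log2 fold changes of 1.003 and 1.06. In bulk samples such as these, more RNA per cell and more cells with the RNA cannot be told apart. About 1003 to 2030 estimated fragments per sample lay behind these values.

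The table divided BRCA1 over 30 transcripts, and the difference between the groups was uneven among them. In the NC group as in the OV-BRCA1 group, BRCA1-208 was the most abundant, a transcript of 3273 bases with a coding sequence of 699 codons. It stood at 17.3, 19.6 and 17.6 FPKM in the OV-BRCA1 samples and at 7.995, 6.66 and 8.62 FPKM in the NC samples. These values did not overlap, and the log2 fold change was 1.13 (SE 0.12, adjusted p = 0.00903, limma over 50925 transcripts). BRCA1-208 held 48.8% of the BRCA1 FPKM in the OV-BRCA1 group against 41.1% in the NC group.

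BRCA1-203, the transcript for the full-length protein (7207 bases and 1863 codons in GENCODE release 29), was not higher in the OV-BRCA1 group. In the deposited table its first exon starts 113 bases further in than in that annotation, from which its length and exons are given here. Its levels were 0.306, 0.946 and 0.862 FPKM in the OV-BRCA1 samples and 1.83, 3.70 and 0 FPKM in the NC samples, which overlapped (log2 fold change -0.50, SE 0.58, adjusted p = 0.680). It was -1.12 without NC replicate 3 and -0.0014 without NC replicate 2, and it was called in none of 12 alternative analyses. BRCA1-201 (3668 bases, 721 codons) had 7.63, 8.72 and 7.56 FPKM in the OV-BRCA1 samples and was listed at 0, 0 and 3.86 FPKM in the NC samples. All OV-BRCA1 samples were above the NC samples, but the NC samples differed so much among themselves that the log2 fold change of 2.40 (SE 0.65) had an adjusted p of 0.103. It was called in 1 of 12 alternative analyses, that without NC replicate 3 (3.16, adjusted p = 0.00488), and the log2 fold change ranged from 2.02 to 4.56 over the 12. NC sample 3 was thus the only NC sample with BRCA1-201 and the only sample without BRCA1-203.

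BRCA1-219 (2379 bases, 759 codons) was at 1.22, 1.24 and 0.844 FPKM in the OV-BRCA1 samples and at 2.51, 1.10 and 3.33 FPKM in the NC samples (log2 fold change -0.60, SE 0.30, adjusted p = 0.312, and -0.90 without NC replicate 2 and -0.38 without NC replicate 3). These 4 transcripts, each with at least 5% of BRCA1 in a group, summed to 27.9 ± 2.21 FPKM in the OV-BRCA1 group against 13.2 ± 2.31 in the NC group (SD, n = 3). The other 26 summed to 9.22 ± 1.15 and 5.69 ± 2.17 FPKM. Of the 30, 8 passed the filter on low values and 2 passed the adjusted p, BRCA1-208 and the short BRCA1-213 (0.79, SE 0.15, adjusted p = 0.0437), against 5.47% of all transcripts tested. BRCA1-213 was at 0.686, 0.724 and 1.16 FPKM in the OV-BRCA1 samples and at 0, 0.224 and 0 in the NC samples. It passed the filter only through the OV-BRCA1 samples, where it is high, so the filter itself favoured its call. It was called in 2 of 9 alternative analyses, with a log2 fold change of 0.74 to 2.66 (the highest with a pseudocount of 0.1), where BRCA1-208 was called in 12 of 13.

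**Figure D1:**
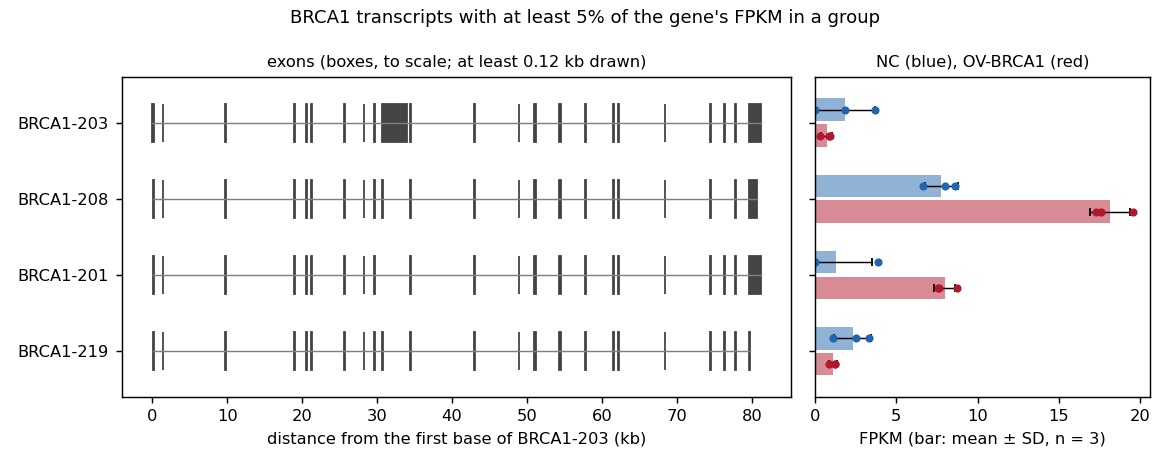
Exons of the 4 BRCA1 transcripts with at least 5% of the gene's FPKM in a group, as distance in kb from the first base of BRCA1-203 (left), and their FPKM (right; points are samples, bars the mean and SD of 3). BRCA1-208 and BRCA1-201 are higher in all OV-BRCA1 samples, while BRCA1-203, the one with the whole large exon near the middle, and BRCA1-219 overlap between the groups.

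These transcripts differ, among other places, in the large exon of BRCA1, exon 10 of BRCA1-203 by position and traditionally called exon 11. It spans 3426 bases (chromosome 17, 43091435 to 43094860), which is 1142 codons of the full-length protein, and it is known to hold the nuclear localization signals of BRCA1. BRCA1-203 contains it whole. BRCA1-208 and BRCA1-219 keep its first 117 bases, and BRCA1-201 passes over it. BRCA1-208 and BRCA1-219 have the same junctions here. They differ in the first exon (175 and 80 bases), in exon 21, which BRCA1-208 lacks, and in the last exon, of which they hold 998 and 125 bases. The junctions are shown because they tell apart the whole exon, its first 117 bases and its absence, with 20 bases on each side, 5′ to 3′, and the downstream exon in capitals.
BRCA1-203, BRCA1-208 and BRCA1-219, into the large exon: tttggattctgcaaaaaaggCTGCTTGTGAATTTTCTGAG
BRCA1-203, out of the whole large exon: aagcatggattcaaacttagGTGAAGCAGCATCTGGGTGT
BRCA1-208 and BRCA1-219, out of its first 117 bases: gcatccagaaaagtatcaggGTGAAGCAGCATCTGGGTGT
BRCA1-201, past the large exon: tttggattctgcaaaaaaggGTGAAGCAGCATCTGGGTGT
The last 3 end in the same downstream exon, and only the sequence before it differs.

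Grouped by this exon, 5 of the 30 transcripts contained it whole. Their sum was 2.82, 2.26 and 1.31 FPKM in the OV-BRCA1 samples and 3.71, 3.88 and 1.17 FPKM in the NC samples, so the groups overlapped and the mean was not higher with the plasmid (2.13 ± 0.765 against 2.92 ± 1.52, SD, n = 3). The 6 transcripts with part of the exon and sequence on both sides of it, BRCA1-208 and BRCA1-219 among them, stood at 11.1 ± 2.17 FPKM in the NC group and 21.5 ± 2.31 in the OV-BRCA1 group without overlap. The 4 transcripts that pass over it went from 0.559, 0.518 and 4.30 FPKM in the NC samples to 8.38, 9.42 and 8.56 in the OV-BRCA1 samples, also without overlap. Their share of the gene was 2.78%, 3.48% and 19.8% in the NC samples and 23.1% to 24.5% in the OV-BRCA1 samples, so the NC share of 9.49% would be 3.08% without NC sample 3. The whole exon was in transcripts with 15.5% of BRCA1 FPKM in the NC group and 5.73% in the OV-BRCA1 group, with overlap between the samples. The remaining 15 transcripts do not span the exon: they end or begin inside it or lie wholly to 1 side of it.

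The same transcript levels were also laid out along the gene, which is not a second measurement. When the FPKM of all transcripts that hold a base was summed and averaged over each exon of BRCA1-203, 20 exons had an OV-BRCA1 to NC ratio between 2.04 and 2.16, and in all 20 the groups did not overlap. The large exon had 4.26, 3.87 and 2.30 FPKM in the OV-BRCA1 samples against 4.98, 4.37 and 1.99 in the NC samples, a ratio of 0.920 with overlap. Its first 117 bases had a ratio of 1.63 and its other 3309 bases a ratio of 0.805. Exon 21, which BRCA1-208 lacks, had a ratio of 1.70, and the last exon, which holds the 3′ untranslated region, a ratio of 2.46. These levels are built from the authors' transcript estimates and not from reads at each base, so they carry any error in how fragments were divided among transcripts. They are given without a test.

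**Figure D2:**
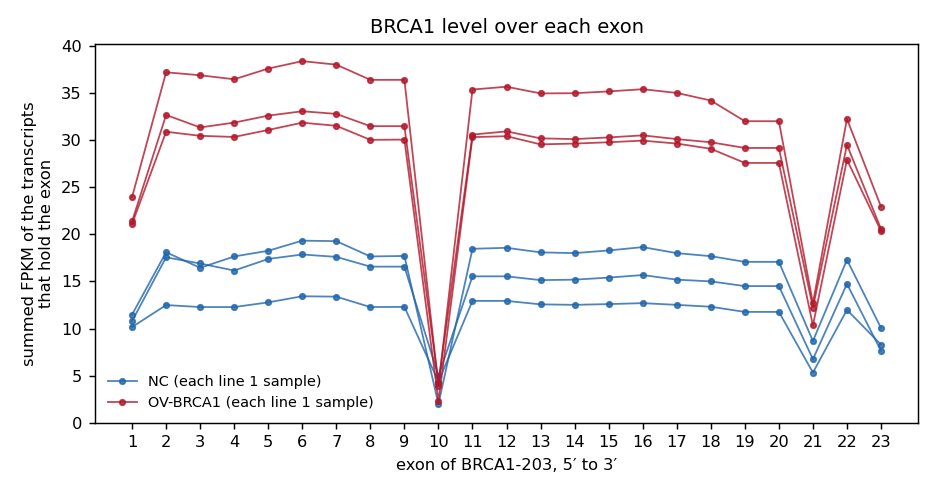
Summed FPKM of the BRCA1 transcripts that hold each exon of BRCA1-203 (exon number on the x axis, 5′ to 3′), 1 line a sample. The OV-BRCA1 lines run at about 2 times the NC lines over most exons, and the 6 lines meet at exon 10, the large exon, where the group means are 3.48 and 3.78 FPKM.

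BRCA1 shares its promoter with NBR2, a long noncoding RNA gene that is read in the opposite direction. The RefSeq promoter windows (250 bases before to 50 after the start, GRCh38.p14) of the pair share 292 bases. The BRCA1 window, chr17:43125315-43125614 on the minus strand, is shown since both genes differed between the groups and in opposite directions, with the CCAAT box in capitals.
BRCA1 promoter: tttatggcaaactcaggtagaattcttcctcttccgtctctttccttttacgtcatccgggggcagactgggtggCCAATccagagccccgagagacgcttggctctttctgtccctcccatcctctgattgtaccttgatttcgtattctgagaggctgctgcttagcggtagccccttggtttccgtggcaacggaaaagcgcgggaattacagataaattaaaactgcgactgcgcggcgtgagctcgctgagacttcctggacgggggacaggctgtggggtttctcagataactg
NBR2 had 6.38, 5.85 and 7.83 FPKM in the OV-BRCA1 samples and 11.4, 10.8 and 12.2 in the NC samples. All OV-BRCA1 samples were lower (log2 fold change -0.70, SE 0.11, adjusted p = 0.00441), where BRCA1 was higher. BRCA1P1, a partial copy of the 5′ end of BRCA1 nearby with which reads could be split, had 1.35, 3.0 and 0.813 FPKM against 2.39, 4.62 and 1.85 (-0.56, adjusted p = 0.278). The noncoding gene AC060780.1 shares 120 exon bases (1.31%) with BRCA1 on the same strand and had 5.51 to 6.57 FPKM in the OV-BRCA1 group against 6.23 to 7.26 in the NC group.

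Searched on both strands, CCAAT occurred in 34.65% of 34943 RefSeq promoter windows and in 4 of the 13 windows of the 9 genes, those of BRCA1, PALB2, BRIP1 and BABAM1. The cyclic AMP response half-site TGACGT, which is also part of the full site TGACGTCA, was in 7.97% of all windows and in 3 of the 13, both BRCA1 windows and the RBBP8 window. The full site (1.84% of windows), the E2F site in the forms TTTCGCGC or TTTGGCGC (1.14%) and the interferon response motif of GAAA, any 2 bases and GAAA (3.57%) were in none of the 13. Other forms of the E2F site were not searched for. A match of letters does not show that a factor binds there.

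Of the 8 partners, 4 passed the adjusted p of 0.05. BRCA2, BRIP1 and RBBP8 were higher in the OV-BRCA1 group, BABAM1 was lower, and BARD1, PALB2, UIMC1 and BRCC3 did not pass. The partners called were thus 4 of 8 (50%), against 35.3% of the 16321 genes tested. With BRCA1, which the plasmid itself carries, 5 of 9 passed. The count of partners was 6 with scaling by the median of ratios, where 35.2% of all genes passed. It was 2 or 3 with 1 sample left out (26.8% to 28.5% of all genes) and 0 when the transcript with the highest mean stood for each gene (21.1%). Of the 8 partners, 3 were called higher and 1 lower, beside a background of 16.4% called higher and 18.9% called lower. The groups did not overlap in 6 of the 8 partners, and with BRCA1 in 7 of 9, against 50.8% of all genes tested. None of the 9 passed both the adjusted p and the fold change, against 3.99%. The median log2 fold change was 0.21 over the 9 genes and 0.19 over the 8 partners, beside -0.04 over all genes tested. Every one of the 9 passed the filter on low values.

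**Figure D3:**
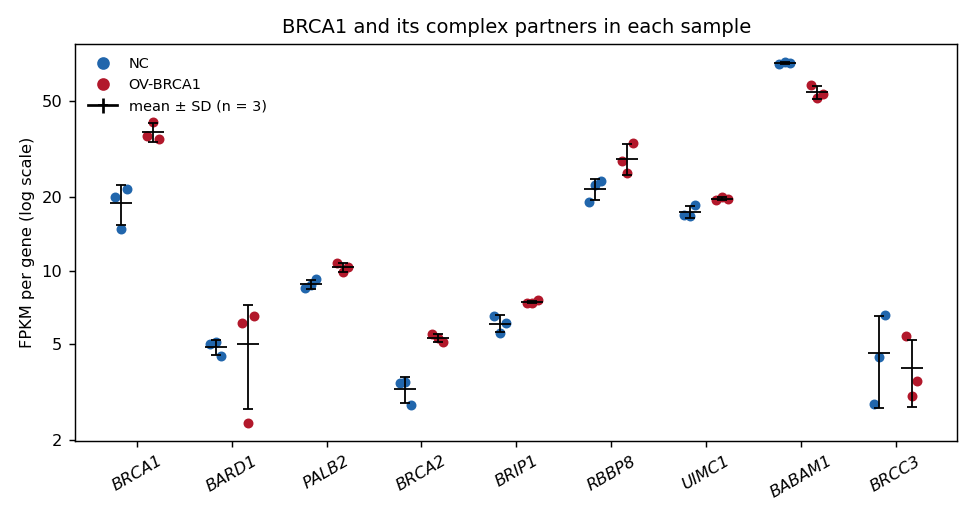
FPKM of each gene in each sample (log axis; points are samples, black bars the mean and SD of 3). BRCA1 and BRCA2 are higher in the OV-BRCA1 samples without overlap, BABAM1 is lower, and BARD1 and BRCC3 overlap widely.

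**Figure D4:**
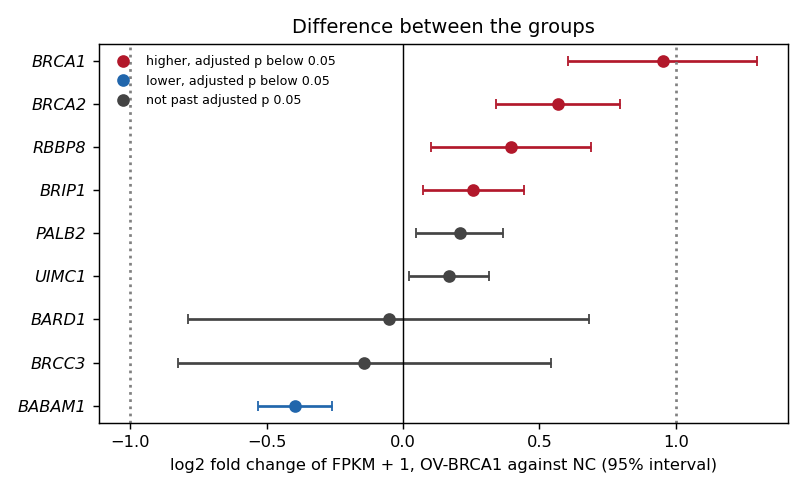
Log2 fold change of FPKM + 1 in the OV-BRCA1 group against the NC group, with the 95% interval from limma, for BRCA1 and its 8 partners; dotted lines mark a change of 1. The estimates run from -0.40 (BABAM1) to 0.95 (BRCA1), and the intervals of BARD1 and BRCC3 are the widest.

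BARD1 (chromosome 2, 214725646 to 214809711) is the obligate partner of BRCA1 in its ligase, and each protein stabilizes the other. It had 6.07, 2.37 and 6.49 FPKM in the OV-BRCA1 samples and 5.00, 5.06 and 4.46 FPKM in the NC samples. OV-BRCA1 sample 2, the sample with the most BRCA1, had the least BARD1, with about 164 estimated fragments, while the other two OV-BRCA1 samples exceeded all NC samples. The log2 fold change was -0.05 (SE 0.30, 95% interval -0.79 to 0.68, adjusted p = 0.910), and without OV-BRCA1 replicate 2 it was 0.32 (adjusted p = 0.0578). The ratio of BRCA1 to BARD1 FPKM was 5.89, 17.2 and 5.38 in the OV-BRCA1 samples and 4.02, 2.94 and 4.87 in the NC samples. It was higher in all OV-BRCA1 samples, by 1.08 on the log2 scale on average (exact permutation p = 0.1, two-sided, the smallest that 3 against 3 samples allow). Without OV-BRCA1 replicate 2 the difference was 0.54 (exact permutation p = 0.2). The 777-codon transcript BARD1-201 varied more than the gene, from 0.632 to 4.58 FPKM in the OV-BRCA1 samples and from 1.93 to 4.86 in the NC samples.

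PALB2 (chromosome 16, 23603160 to 23641310) had 10.7, 9.88 and 10.4 FPKM in the OV-BRCA1 samples and 8.48, 8.71 and 9.20 in the NC samples. The groups did not overlap, but the log2 fold change of 0.21 (SE 0.07, 95% interval 0.05 to 0.37) had an adjusted p of 0.0523. It was called in 3 of 16 alternative analyses, with adjusted p of 0.0295 to 0.0471. Its full-length transcript PALB2-201 (1186 codons) held 71.3% and 73.0% of the gene's FPKM in the OV-BRCA1 and NC groups. PALB2-201 did not overlap between the groups either, at 6.98 to 7.61 FPKM in the OV-BRCA1 samples and 6.26 to 6.57 in the NC samples. Tested in place of the gene, it was not called (limma, log2 fold change 0.17, adjusted p = 0.150).

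BRCA2 (chromosome 13, 32315474 to 32400266) had 5.50, 5.27 and 5.09 FPKM in the OV-BRCA1 samples and 3.46, 3.495 and 2.80 in the NC samples. The groups did not overlap (log2 fold change 0.57, SE 0.09, adjusted p = 0.00537). The transcript that codes for the protein overlapped between the groups. BRCA2-201 (11986 bases, 3418 codons) had 2.57, 2.38 and 2.86 FPKM in the OV-BRCA1 samples and 1.63, 3.23 and 1.63 in the NC samples, with NC sample 2 the highest of all. Tested alone in place of the gene, it gave a difference of 0.22 on the log2 scale (adjusted p = 0.524). With FPKM weighted by transcript length before summing, which gives long transcripts more weight, the gene had 0.35 (adjusted p = 0.315).

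Shorter transcripts, annotated as retained intron or for nonsense-mediated decay, made up the rest of BRCA2. BRCA2-205, a retained-intron transcript of 523 bases near the 3′ end of the gene, had 1.13, 0.826 and 2.15 FPKM in the OV-BRCA1 samples and 0.447, 0.123 and 0.323 in the NC samples. It did not overlap between the groups, and its share of the gene's FPKM was 25.9% in the OV-BRCA1 group against 9.16% in the NC group (log2 fold change 0.84, SE 0.24, adjusted p = 0.115). BRCA2-203, which is annotated for nonsense-mediated decay, had 1.03, 1.20 and 0.0814 FPKM against 0.315, 0.0831 and 0.0405. BRCA2-202, of the same annotation, had 0.764, 0.862 and 0 FPKM against 1.06, 0.0605 and 0.809. Its share of the gene was 13.9%, 16.4% and 0% in the OV-BRCA1 samples and 30.7%, 1.73% and 28.9% in the NC samples, which overlapped. The ratio of BRCA2 to PALB2 was 0.514, 0.533 and 0.491 in the OV-BRCA1 samples and 0.408, 0.401 and 0.305 in the NC samples (log2 difference 0.48, exact permutation p = 0.1), and the short transcripts of BRCA2 are part of this sum.

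BRIP1 (chromosome 17, 61681266 to 61863521), the helicase that binds the BRCT repeats of BRCA1 in the BRCA1-B complex, had 7.36, 7.36 and 7.53 FPKM in the OV-BRCA1 samples and 6.52, 5.54 and 6.10 in the NC samples. The OV-BRCA1 samples were nearly equal and all above the NC samples. The log2 fold change was 0.26 (SE 0.08, adjusted p = 0.0426), and BRIP1 was called in 7 of 16 alternative analyses. With 1 sample left out, its adjusted p was 0.0459 to 0.110, and it kept the call only without NC replicate 1. Its full-length transcript BRIP1-201 (1249 codons) was at 4.78, 6.05 and 5.57 FPKM in the OV-BRCA1 samples and 4.25, 4.24 and 3.90 in the NC samples, again without overlap. Tested in place of the gene, BRIP1-201 was not called (limma, log2 fold change 0.33, adjusted p = 0.0842).

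RBBP8 (chromosome 18, 22798261 to 23026488), the resection factor of the BRCA1-C complex, had 28.2, 25.1 and 33.4 FPKM in the OV-BRCA1 samples and 19.2, 22.4 and 23.4 in the NC samples. It did not overlap between the groups, with a log2 fold change of 0.40 (SE 0.12, adjusted p = 0.0469), and it was called in 6 of 16 alternative analyses. With FPKM weighted by transcript length the log2 fold change was 0.21 (adjusted p = 0.0341). With 1 sample left out, its adjusted p was 0.0342 to 0.123, and it kept the call only without OV-BRCA1 replicate 2. The transcript with the highest level, RBBP8-201 (897 codons), had 10.5, 14.5 and 10.2 FPKM in the OV-BRCA1 samples and 10.9, 9.05 and 12.8 in the NC samples, which overlapped (log2 fold change 0.09, adjusted p = 0.765 in place of the gene). RBBP8-213, a shorter form of 324 codons, had 7.86, 4.24 and 11.7 FPKM against 1.52, 5.34 and 4.73. RBBP8-205 (867 codons) was at 0.779, 0.0613 and 1.70 FPKM in the OV-BRCA1 samples and at 1.95, 2.86 and 2.75 in the NC samples, below them in every sample (-1.02, SE 0.36, adjusted p = 0.181).

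Of the 3 BRCA1-A subunits among the 9 genes, BABAM1 passed the test and UIMC1 and BRCC3 did not, against 35.3% of all genes tested. UIMC1 (chromosome 5, 176905005 to 177022633), which binds the ubiquitin chains, had 19.5, 20.01 and 19.7 FPKM in the OV-BRCA1 samples and 16.98, 16.8 and 18.6 in the NC samples. The groups did not overlap, but the log2 fold change of 0.17 (SE 0.06, 95% interval 0.02 to 0.31) had an adjusted p of 0.0751. With scaling by the median of ratios it was called (0.20, adjusted p = 0.0387). The transcript of UIMC1 with the highest mean was a retained-intron form, UIMC1-202, at 3.997 to 5.57 FPKM in the OV-BRCA1 samples and 2.67 to 3.48 in the NC samples. Summed over its 7 protein-coding transcripts, UIMC1 was at 5.35 to 9.94 FPKM in the OV-BRCA1 group against 5.17 to 10.1 in the NC group, which overlapped.

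BABAM1 (chromosome 19, 17267350 to 17281249), a subunit that keeps the complex intact, was the partner that fell. It had 57.8, 51.3 and 53.1 FPKM in the OV-BRCA1 samples and 70.7, 72.2 and 71.4 in the NC samples. Every OV-BRCA1 sample was lower, the mean was 0.757 times that of the NC group, and the log2 fold change was -0.40 (SE 0.06, adjusted p = 0.00301). Both its coding and its retained-intron transcripts were lower without overlap, the coding ones at 36.5 to 39.6 FPKM against 42.9 to 50.4 and the retained-intron ones at 13.3 to 16.4 against 20.4 to 26.7. BABAM1-213, the transcript with the highest mean, had 19.2, 19.5 and 20.1 FPKM in the OV-BRCA1 samples and 27.3, 30.5 and 7.95 in the NC samples. In NC sample 3, 23.3 FPKM stood under BABAM1-208 instead, which had 1.47 to 2.23 in the other five samples. Both transcripts have a coding sequence of 329 codons, and with BABAM1-213 in place of the gene the log2 fold change was 0.04 (adjusted p = 0.964). The gene AC010463.1 shares 850 exon bases (32.6%) with BABAM1 on the same strand, and it had at most 0.731 FPKM in any sample.

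BRCC3 (chromosome X, 155071420 to 155123074), the deubiquitinase of the complex, had 5.36, 3.06 and 3.503 FPKM in the OV-BRCA1 samples and 2.82, 4.39 and 6.57 in the NC samples. The groups overlapped over most of their range (log2 fold change -0.14, SE 0.28, 95% interval -0.83 to 0.54, adjusted p = 0.730), and without NC replicate 3 the log2 fold change was 0.10. With 92 to 343 estimated fragments a sample, BRCC3 was the most thinly covered of the 9 genes. Of the 46 transcripts of the 9 genes that were tested, the 2 of BRCA1 named above passed the adjusted p, and none of the 38 of the partners did, against 5.47% of all transcripts tested.

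By mean FPKM over all 6 samples the order of the 9 genes was BABAM1, BRCA1, RBBP8 and UIMC1, then PALB2, BRIP1, BARD1, BRCC3 and BRCA2. FPKM are per length, so these levels can be set side by side. The order was not the same in both groups. In the NC group BRCA1 (14.9 to 21.7 FPKM) overlapped RBBP8 (19.2 to 23.4) and UIMC1 (16.8 to 18.6), and in the OV-BRCA1 group it was above both in every sample. In the NC group BARD1 (4.46 to 5.06) and BRCC3 (2.82 to 6.57) overlapped, as did BRCC3 and BRCA2. BRCA2 had the lowest mean of the 9 in the NC group (3.25 FPKM), while in the OV-BRCA1 group its mean (5.29) was above those of BARD1 (4.97) and BRCC3 (3.97), with all 3 overlapping. With coding transcripts only, BRCA2 had the lowest mean of these 3 in the OV-BRCA1 group too (2.60 FPKM, against 3.91 for BARD1 and 3.97 for BRCC3).

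Over the 6 samples, the genes whose log2(FPKM + 1) was most like that of BRCA1 were PRXL2C (Pearson r = 0.994), SHLD2 (0.993), DHX37 (0.992), NCEH1 (0.992) and TRNT1 (0.992), among 9259 genes with a mean of at least 5 FPKM. SHLD2 is a subunit of shieldin, the complex that protects ends from resection. Since the 6 samples are the 2 groups, r mainly follows the difference between them, and 311 genes had an r above 0.95. Among the partners, r was 0.954 for BRIP1, 0.945 for UIMC1, 0.870 for PALB2, 0.847 for BRCA2 and 0.694 for RBBP8. It was -0.184 for BRCC3, -0.227 for BARD1 and -0.942 for BABAM1.

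Other genes that work with the 9 were described by lists written from general knowledge. In the BRCA1-A complex, BABAM2, the subunit that pairs with BABAM1, was lower as well, with 9.04, 10.5 and 11.2 FPKM in the OV-BRCA1 samples and 13.0, 15.1 and 15.9 in the NC samples (log2 fold change -0.48, SE 0.11, adjusted p = 0.0157). ABRAXAS1, which ties the complex to BRCA1, was at 1.87 to 2.45 FPKM against 1.86 to 1.99 (0.13, adjusted p = 0.350). In the BRCA1-B and BRCA1-C complexes, 1 of 4 genes passed (25%, against 35.3% of all genes tested), NBN, a part of the break sensor that works with RBBP8, at 9.20, 7.16 and 9.04 FPKM against 6.83, 5.95 and 5.11 (0.44, adjusted p = 0.0413).

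Upstream of BRCA1, 4 of 17 genes of damage signalling passed (23.5%, against 35.3% of all genes tested), 2 higher and 2 lower. SHLD2 (0.38, adjusted p = 0.0101) and the ubiquitin-conjugating enzyme UBE2N (0.30, adjusted p = 0.0103) were higher, and the histone variant H2AFX (-0.27, adjusted p = 0.00524) and the checkpoint kinase CHEK2 (-0.26, adjusted p = 0.0404) were lower. Downstream, 8 of 22 genes of homologous recombination passed (36.4%, against the same 35.3%), 3 higher and 5 lower. The subunits RPA3 (-0.45, adjusted p = 0.00247) and RPA1 (-0.30, adjusted p = 0.0143) of the protein that coats single-stranded DNA were lower and its subunit RPA2 was higher (0.19, adjusted p = 0.0166). SEM1, a small protein that binds BRCA2, was lower (-0.46, adjusted p = 0.00577), and the resecting nuclease EXO1 was higher (0.35, adjusted p = 0.0112).

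Of 16 Fanconi anaemia genes, which act in the repair of DNA crosslinks together with BRCA1, BRCA2, PALB2 and BRIP1, none was called higher and 6 (37.5%) were called lower, against 16.4% and 18.9% of all genes tested and 35.3% in either direction. They included FAAP100 (-0.51, adjusted p = 0.00286), FANCA (-0.37, adjusted p = 0.00624) and FANCL (-0.30, adjusted p = 0.00826) of the core complex and the nuclease scaffold SLX4 (-0.52, adjusted p = 0.00414). Over these 5 lists, 20 of 61 genes (32.8%) passed, 6 higher and 14 lower, close to the share of all genes, and their median log2 fold change was -0.02. Without NC replicate 2 or NC replicate 3, 13 of the 61 passed, where 28.3% and 27.4% of all genes tested did.

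**Figure D5:**
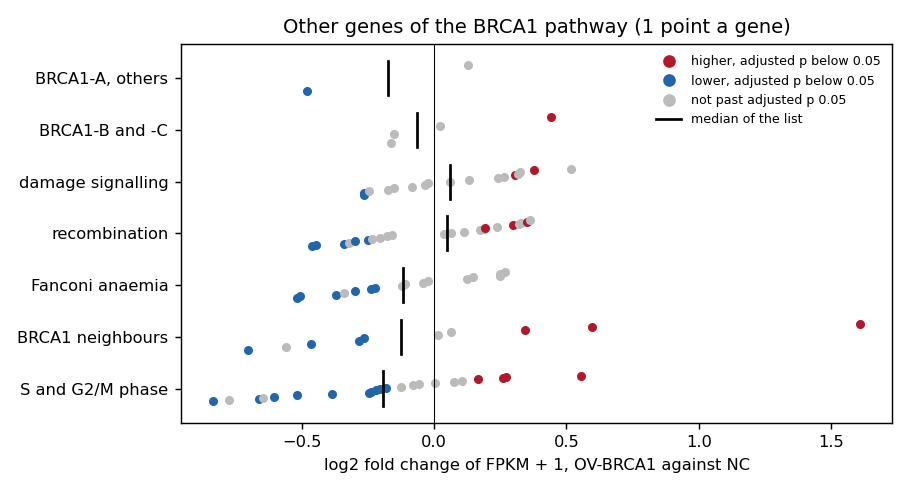
Log2 fold change of each tested gene of the lists, coloured by the adjusted p from limma, with the median of each list as a black line. The medians of the first 5 lists lie between -0.17 and 0.06, and the point far to the right among the BRCA1 neighbours is IFI35 at 1.61.

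Genes that lie beside BRCA1 on chromosome 17 did not follow it as a block. Of 12 neighbours 10 were tested, and 3 were higher and 4 lower, against 16.4% and 18.9% of all genes tested. IFI35, an interferon-induced gene, had 76.6, 66.3 and 70.8 FPKM in the OV-BRCA1 samples and 24.2, 20.5 and 23.4 in the NC samples (1.61, adjusted p = 6.24e-05), a larger log2 fold change than that of BRCA1. RUNDC1 was also higher (0.34, adjusted p = 0.0107), and VAT1 (-0.46, adjusted p = 0.00298) and NBR1 (-0.26, adjusted p = 0.0161) were lower. RND2 was at 0.0630 to 0.242 FPKM and was not tested.

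Genes of S and G2/M phase, in which BRCA1 and most of its partners are usually expressed, differed between the groups too. Of 22, 4 were higher and 10 lower, against 16.4% and 18.9% of all genes tested, with a median log2 fold change of -0.19. CDC6, which licenses replication origins, rose from 25.6 to 26.5 FPKM in the NC samples to 37.3 to 39.9 in the OV-BRCA1 samples (0.55, adjusted p = 5.24e-04). TOP2A (-0.83, adjusted p = 6.76e-05), CCNB1 (-0.66, adjusted p = 3.75e-04) and CDK1 (-0.39, adjusted p = 0.00297), which act in G2 and mitosis, fell. Their part in the levels of the 9 genes was not tested. GAPDH, the reference gene of the study, had 2834 to 3006 FPKM in the OV-BRCA1 group against 2777 to 2914 in the NC group (0.03, adjusted p = 0.586).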

How the data were processed

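The study sequenced mRNA from 3 OV-BRCA1 and 3 NC samples, which it describes as biological replicates and which were grouped here by their transfection labels. The authors deposited FPKM per transcript (199167 transcripts of 58174 genes). The submitters' processing notes name FastQC, HISAT2 and hg38, and the quantifier, the annotation and the use of strand are not given in the sources used here. Gene names came from GENCODE release 29. It held 198868 of the transcripts, 98.7% of these at the same position, as were 119 of the 121 transcripts of the 9 genes, the exceptions being BRCA1-203 and BRCA1-210.

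FPKM were summed per gene and log2(FPKM + 1) was tested with limma 3.58.1 (R 4.3.3, mean-variance trend, Benjamini-Hochberg adjustment) over the 16321 genes with at least 0.5 FPKM in at least 3 samples. On this scale the change of low values is understated. Transcripts were tested in the same way. Single ratios were compared with exact two-sided permutation tests. The step size of low values in 14223 single-transcript genes gave the estimated depths. Only 32.6% to 35.0% of low values fell within 0.1 of a whole fragment, so whole reads were not recovered, and the estimates cover counting error only. Samples with the same replicate number did not deviate together (correlations -0.0244, 0.0250 and 0.0136), so the numbers were not taken as pairs. Tables and figures were made with Python 3.11.15, pandas 2.3.3, numpy 2.4.6 and matplotlib 3.10.9, and the test was run on simulated data beforehand.

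The genes named are the 9 members, BRCA1 transcripts with at least 5% of the gene in a group, the transcript with the highest mean of each partner, up to 4 called genes of each pathway, neighbour and cell cycle list by adjusted p, genes adjacent to BRCA1, the 5 genes most like BRCA1 with a mean of at least 5 FPKM, and GAPDH. Other transcripts, genes of a complex list that were not called, RPA2, the cell type markers named, AC010463.1 and AC060780.1 were named after their values were seen. The genes and lists were chosen with earlier results of these data known. The alternatives were a pseudocount of 0.1, no filter or at least 1 FPKM in all samples, the replicate block, no trend, 2 other scalings, each sample left out, the top transcript, FPKM weighted by transcript length and, added after seeing the data, coding transcripts only.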

Additional observations from a re-analysis of the deposited data

How the results depend on the processing

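BRCA1 was higher and called in all 16 alternatives, with a log2 fold change of 0.91 to 1.13, and of 0.80 to 1.06 with 1 sample left out. The number of partners called was 6 with the median of ratios and 5 with at least 1 FPKM in all samples, where PALB2 and, in the former, UIMC1 were called as well. It fell from 4 to 2 without a filter, with the total of nuclear coding genes set equal and with coding transcripts only, to 0 with the top transcript, and to 2 or 3 with 1 sample left out. Of all genes tested, 35.3% were called as reported, 35.2% with the median of ratios, 39.9% with at least 1 FPKM in all samples, 14.5% without a filter, 35.8% with the nuclear coding total, 31.1% with coding transcripts only, 21.1% with the top transcript and 26.8% to 28.5% with 1 sample left out. The cause of these changes was not tested. The number of the 9 genes past both criteria went from 0 to 1 with the top transcript (4.21% of all genes, against 3.99%) and lay between 0 and 1 with 1 sample left out, 1 being reached without NC replicate 1 or NC replicate 3 (4.16% and 4.12%). Of the 61 pathway genes, 10 were called with the top transcript in place of 20, 14 with the replicate block (28.2% of all genes), 25 with FPKM weighted by transcript length (41.6%), and 13 to 18 with 1 sample left out, the lowest without NC replicate 2 or NC replicate 3. BRCA1 transcripts called went from 2 to 1 with a pseudocount of 0.1, without a filter, with at least 1 FPKM in all samples and without trend (5.14%, 1.15%, 17.4% and 4.77% of all transcripts), and lay between 1 and 2 with 1 sample left out (2.09% to 2.37%). The replicate block cannot move a fold change in this balanced design. With it BRCA1 had an adjusted p of 0.0212 (limma, log2 fold change 0.95), BRIP1 was not called (0.26, adjusted p = 0.0872), no BRCA1 transcript was called, 0.489% of all transcripts tested were called in place of 5.47%, and 4595 genes in place of 5764. With 1 sample left out, BARD1 ranged from -0.26 to 0.32 and BRCC3 from -0.39 to 0.10, with the sign turned without OV-BRCA1 replicate 2 and NC replicate 3. With the top transcript BABAM1 had 0.044, BARD1 -0.78 (adjusted p = 0.385), BRCC3 -0.45 (0.557) and UIMC1 0.49 (0.0759), and with coding transcripts only BARD1 had -0.26 and UIMC1 0.01. The log2 BRCA1 to BARD1 difference ranged from 1.07 to 2.51 over 3 alternatives and from 0.54 to 1.38 with 1 sample left out. With a pseudocount of 0.1, 1280 genes passed both criteria in place of 651. The lowest estimated depths were 92 fragments for BRCC3 and 164 for BARD1, the latter in a single sample, and the part of depth in their spread was not tested.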
